A study of Homo sapiens with 26 samples.

Results

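The MCM2, MCM3, MCM4, MCM5, MCM6 and MCM7 genes encode the subunits of the MCM helicase, and 4 further genes act with it at the replication fork: MCM10, PCNA, RRM1 and RRM2. These 10 genes were selected by name, without reference to any measured value in the rule, and are 10 of the 19478 transcripts in each of 4 deposited tables of ribosome footprint counts. The libraries were made to compare ways of removing ribosomal RNA (rRNA) from footprint libraries, and for these genes 2 questions were asked of them: how evenly the helicase subunits were synthesised, and how their footprint levels stood against PCNA, RRM1 and RRM2 in each cell line and with each depletion kit.

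The MCM2 to MCM7 proteins assemble in equal copy number into a ring that is loaded onto origins in G1 and, once joined by CDC45 and the GINS complex, unwinds DNA ahead of the polymerases. MCM10 helps to activate that helicase, PCNA is the sliding clamp that tethers the DNA polymerases, and RRM1 and RRM2 are the large and small subunits of ribonucleotide reductase, which makes deoxyribonucleotides. Genes of this group are known targets of E2F transcription factors in cycling cells.

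All 26 libraries came from cultured human cell lines lysed with cycloheximide, which halts elongating ribosomes, and no other treatment is named in the labels. HEK293T and HEK293FT are both derived from human embryonic kidney cells that carry adenovirus genes and SV40 large T antigen, while K562 was established from chronic myeloid leukaemia. The HEK293T table (fragments labelled 15 to 35 nt) held 2 libraries each of undepleted RNA and of RNA depleted with NEBNext, Ribo-Zero Gold or RiboCop. The HEK293FT table (15 to 35 nt) held 1 undepleted library and 1 depleted with custom oligos. In a table of K562 kits (20 to 34 nt) FastSelect, riboPools, a cold elution form of riboPools and undepleted RNA had 2 libraries apiece. Ribo-Zero Plus had 4 there: 1 without additions, 1 with formaldehyde, 1 with oligos and 1 with both. A further K562 table, on size selection, paired NEBNext with undepleted RNA, 1 library each at 20 to 34 nt and at 20 to 60 nt. Both libraries titled undepleted in that table also carry a label that names NEBNext, so directions drawn from it rest on the titles. The labels do not say whether replicates came from separate cultures, so p-values measure only the spread between these libraries, which may be technical.

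Library totals ran from 46858 counts (K562, titled undepleted, 20 to 60 nt) to 5795774 counts. With additions, the 3 libraries of Ribo-Zero Plus were shallow (116742 to 184722 counts against 1840190 without additions), and they are given apart below. The cell lines carried their markers, given in CPM (counts scaled to a common library total of 1e6). In the 16 K562 libraries the erythroid factor GATA1 ran from 290 to 437 CPM and the fetal globin HBG1 from 1120 to 5258 CPM, and both were at 0 counts in the 10 HEK libraries. The kidney-line marker NEFM ran from 101 to 404 CPM in HEK libraries and was at 0 counts in K562, and CDH2 ran from 86.0 to 236 CPM against 0 to 0.969 CPM. PAX2 was nearly absent from the HEK libraries (7 counts in all), and KLF1 was at 0 counts in at least 1 K562 library.

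The subunits of the helicase are related in sequence, so reads could in principle be shared between them. Of all 28-nt windows of the 10 coding sequences, 0 were shared between members, and 0 windows of MCM2 to MCM7, MCM10 and RRM1 matched any other GENCODE gene. The stretch that encodes the ATP-binding Walker A motif, among the most conserved in the family, is shown because it is where a short read would be most easily misplaced. Capitals mark the codons of the motif in each coding sequence.
MCM2 (chr3:127616909-127616938, plus strand): tgcGGAGACCCTGGCACAGCGAAGTCGcag
MCM3 (chr6:52277173-52277538, minus strand, across an intron): ataGGAGACCCATCCGTTGCCAAGTCTcag
MCM5 (chr22:35413921-35413950, plus strand): ctaGGGGACCCTGGGACAGCCAAGTCCcag
MCM6 (chr2:135862615-135862644, minus strand): gttGGTGACCCAAGTACAGCTAAGAGCcaa
MCM7 (chr7:100097335-100097364, minus strand): atgGGGGATCCTGGTGTGGCCAAGTCTcag
Even here, any 2 of the 6 subunits differed at 7 to 14 of 30 bases (median 11 over 15 pairs, GRCh38). PCNA and RRM2 were less separable. PCNA shared 8.17% of its windows with the pseudogene PCNAP3. RRM2 shared 87.5% of its windows with other annotated loci, mostly AC007240.1, which overlaps it on the same strand, and 28.7% with loci elsewhere, the pseudogenes RRM2P2 and RRM2P3. How the authors counted reads that match several loci is not given in the sources used here, so PCNA and above all RRM2 levels are uncertain. RRM1 and MCM2 overlap an annotated gene (RRM1-AS1 and AC023593.1) on the opposite strand.

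Promoters of these genes were searched in the RefSeq promoter table (GRCh38.p14; 250 bases before to 50 after each start), which held 8 of the 10 genes, for 4 words of the E2F motif: TTTCCCGC, TTTCGCGC, TTTGCCGC and TTTGGCGC, on both strands, with overlaps between words kept. A word was present for 5 of the 8 genes (62.5%), against 3.99% of 27305 genes in the table. The match nearest the start site is printed for each of the 5, with the word or its reverse complement in capitals.
MCM2 (chr3:127598402-127598431, plus strand): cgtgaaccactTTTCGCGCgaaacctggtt
MCM3 (chr6:52284728-52284757, minus strand): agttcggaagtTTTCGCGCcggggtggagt
MCM6 (chr2:135876511-135876540, minus strand): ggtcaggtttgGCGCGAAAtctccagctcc
MCM7 (chr7:100101388-100101417, minus strand): ggggggcgacgTTTCGCGCcaatttcggtt
PCNA (chr20:5126663-5126692, minus strand): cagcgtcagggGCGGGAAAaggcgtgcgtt
MCM6 had the most matches in 1 promoter (4, in overlapping pairs). MCM10, RRM1 and RRM2 had none of these words in their windows. A match is a description of the sequence, and the footprint counts carry no measurement of binding.

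Footprint levels of the helicase subunits were uneven in every library, with MCM7 at the top. Density, the CPM per kilobase of coding sequence (2160 nt for MCM7 to 2715 nt for MCM2), allows genes of different length to be compared, and MCM7 had the highest density of the 6 in 26 of 26 libraries. In undepleted HEK293T, MCM7 stood at 401 and 374 CPM per kb. In the undepleted HEK293FT library it stood at 457 CPM per kb, and in the undepleted K562 kit libraries at 400 and 388 CPM per kb. A footprint level joins the amount of an mRNA and its translation, which cannot be told apart here. These levels placed MCM7 at the 95.05th to 97.04th percentile of the genes with a count in the 4 undepleted libraries of HEK293T and the K562 kit table and in both HEK293FT libraries.

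MCM4 was second. Its density was 302 and 299 CPM per kb in undepleted HEK293T, 259 in HEK293FT, and 196 and 193 in the undepleted K562 kit libraries. Leaving aside the 3 shallow Ribo-Zero Plus libraries, MCM4 ranked second in 8 of 8 HEK293T, 2 of 2 HEK293FT and 12 of 13 K562 libraries, the exception being K562 NEBNext at 20 to 34 nt, where MCM6 and MCM4 were level at 182 CPM per kb.

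The other 4 subunits lay close together in undepleted HEK293T, and the lowest of the 4 differed between libraries, within HEK293T and K562 as well as between the lines. In undepleted HEK293T the mean densities were 193 ± 8.68 CPM per kb for MCM2, 182 ± 27.5 for MCM3, 178 ± 11.4 for MCM5 and 174 ± 7.60 for MCM6 (SD, n = 2), and these neighbours did not differ beyond their spread. MCM3, MCM5 and MCM6 were each lowest in 2 or 3 of the 8 HEK293T libraries. In both HEK293FT libraries MCM6 was lowest, at 143 and 148 CPM per kb. In K562, MCM2 was lowest in 12 of 16 libraries, and MCM3 and MCM6 in 2 each. MCM2 stood at 110 and 107 CPM per kb in the undepleted kit libraries, below MCM5 at 131 and 138 CPM per kb and MCM6 at 149 and 167 CPM per kb.

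**Figure D1:**
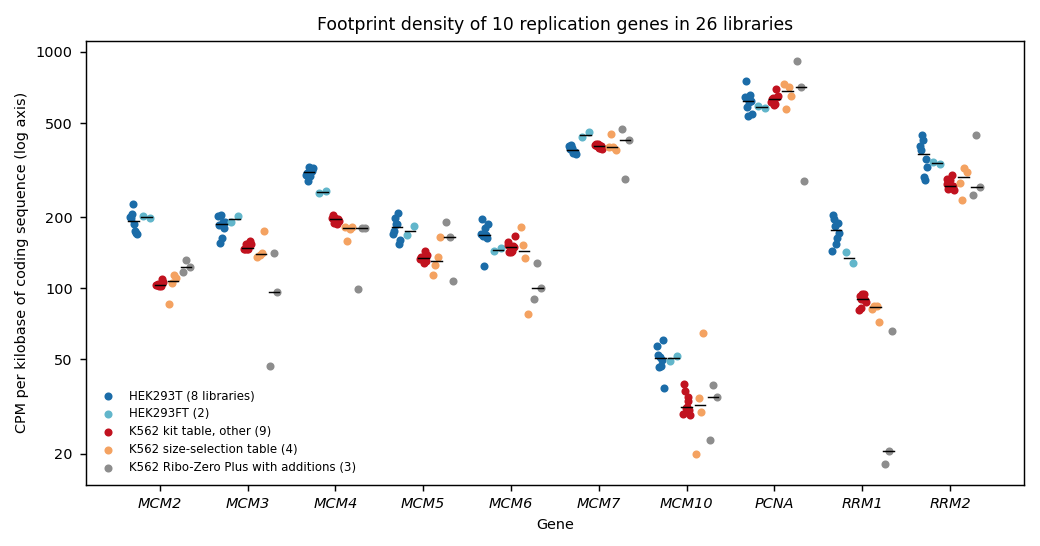
Footprint density (CPM per kilobase of coding sequence, log axis) of the 10 genes in all 26 libraries, 1 point per library, with a black line at the median of each class of libraries. MCM7 lies above the other 5 helicase subunits, RRM1 and MCM10 in every class, MCM2, MCM4 and RRM1 lie lower in the deeper K562 libraries than in HEK293T, and the 3 shallow Ribo-Zero Plus libraries (grey) scatter most.

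Equal density would give each subunit a share of 1 in 6 of their summed density. MCM7 took 27.8% in the first undepleted HEK293T library (95% interval 23.4 to 32.5) and 26.9% in the second (23.0 to 31.1). These intervals, and those of shares below, are exact binomial intervals of raw counts rescaled to density, and cover counting error only. Over all 8 HEK293T libraries the MCM7 share had a lowest value of 26.1%, a median of 26.9% and a highest of 28.6%. It was 31.6% in undepleted HEK293FT (29.9 to 33.3) and 31.4% with custom oligos. In K562 without the shallow libraries it had a lowest value of 33.9%, a median of 35.4% and a highest of 39.7% (13 libraries). The shares of the 3 lines did not overlap.

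The shares of MCM4 and MCM2 were ordered the other way, lowest in K562, again without the 3 shallow libraries. MCM4 held 20.1 to 23.0% in HEK293T (median 21.9%), 17.9 and 18.2% in HEK293FT, and 14.1 to 17.7% in K562 (median 16.8%). MCM2 held 12.2 to 15.5% in HEK293T (median 13.6%), 13.7 and 14.5% in HEK293FT, and 7.85 to 10.4% in K562 (median 9.24%). The range of each gene in these 13 K562 libraries lay below both HEK ranges, while HEK293T and HEK293FT overlapped for MCM2. In the shallow libraries MCM2 held 11.5 to 12.7% and MCM4 9.77 to 17.5%, so that MCM2 reached the HEK293T range. The shares of MCM3 (10.98 to 14.01% in HEK293T, 12.3 to 16.0% in K562), MCM5 (11.4 to 14.5% and 10.4 to 15.0%) and MCM6 (8.53 to 13.5% and 7.12 to 16.6%) overlapped between the lines.

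**Figure D2:**
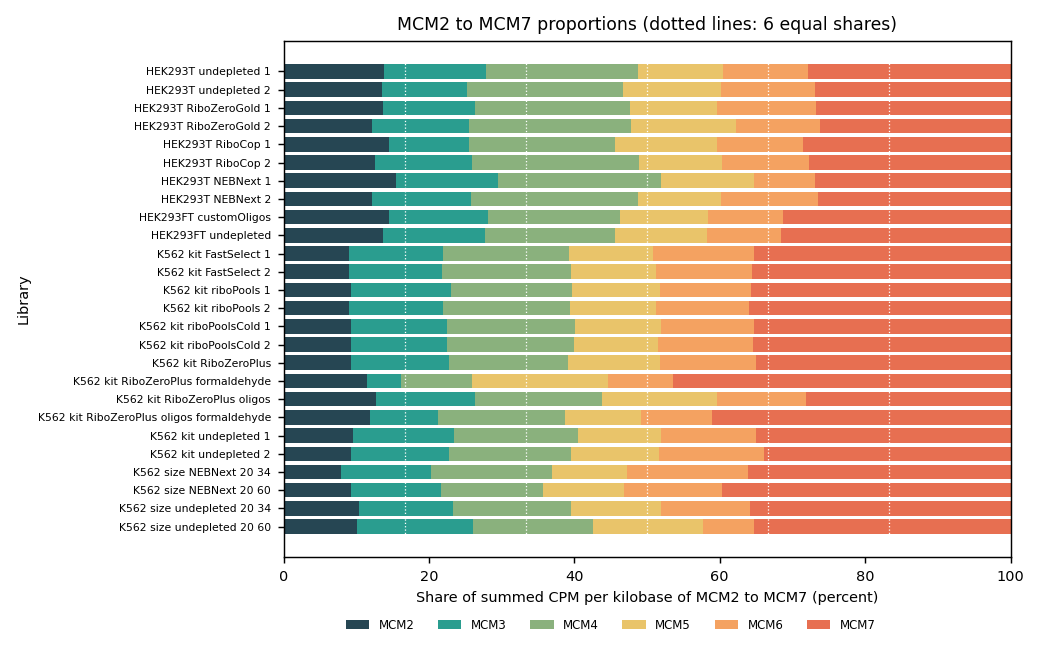
Share of each helicase subunit in the summed density of MCM2 to MCM7 (percent), 1 bar per library, with dotted lines where 6 equal shares would end. The MCM7 segment is narrowest in HEK293T (26.1 to 28.6%), wider in HEK293FT and widest in K562 apart from the 3 shallow Ribo-Zero Plus libraries, of which the one with oligos has 28.1%, and the bars of the deep K562 kit libraries are nearly alike.

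The coefficient of variation (CV) over the 6 densities sums up this unevenness. It was 38.5 and 36.8% in undepleted HEK293T, 46.3% in undepleted HEK293FT, and 55.9 and 52.8% in the undepleted K562 kit libraries. Counting error alone would give a CV of 12 and 10.8% in those HEK293T libraries and of 4.42 and 4.63% in those K562 libraries. Across all libraries the CV ran from 36.0 to 41.5% in HEK293T and from 52.8 to 68.5% in K562 without the shallow libraries. The highest subunit exceeded the lowest by 2.22 to 3.15 times in HEK293T, 3.05 and 3.09 times in HEK293FT, and 3.45 to 4.95 times in those K562 libraries. On raw counts, without division by length, the CV fell to 33.3% in undepleted HEK293T and 45.9% in the undepleted K562 kit libraries. Raw counts of MCM4 exceeded those of MCM7 in the second HEK293T libraries of Ribo-Zero Gold (350 against 342) and NEBNext (168 against 161), and both genes had 113 counts in the first NEBNext library, so the order of these 2 rests on the division by length there. Only 2 libraries per kit were available, and an exact permutation test of 2 against 2 cannot pass a threshold of 0.05, so shares were not tested between groups. Cell line, experiment and size selection also cannot be told apart in the comparison of lines.

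The 9 deep libraries of the K562 kit table gave the closest repeat of these proportions. Over 5 kinds of depletion state (undepleted, FastSelect, riboPools, cold elution and Ribo-Zero Plus without additions) the share of MCM2 was 9.22% ± 0.181, of MCM3 13.3% ± 0.390, of MCM4 17.2% ± 0.458, of MCM5 11.9% ± 0.342, of MCM6 13.2% ± 0.611 and of MCM7 35.2% ± 0.600 (SD, n = 9 libraries). The share of MCM6 ranged from 12.6% in a riboPools library to 14.5% in the second undepleted library. The summed footprints of the 6 genes took 2632 to 2738 CPM in these libraries, against 3291 to 3555 CPM in HEK293T.

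The 3 Ribo-Zero Plus libraries with additions did not keep these proportions. With formaldehyde MCM7 stood at 46.5% of the 6 (rescaled interval 40.4 to 52.6) and MCM3 stood at 4.61% (2.54 to 7.63), from 14 counts. With oligos MCM7 stood at 28.1% (23.9 to 32.6), below the undepleted K562 libraries. With both additions MCM7 stood at 41.1% (36.1 to 46.1). Their CVs were 91.9, 35.5 and 73.9%, while counting error alone would give 14.8, 11.5 and 12.2%. These libraries hold 275 to 460 counts for the 6 genes together, and there is 1 library per combination, so they have no replicate check.

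PCNA had the highest density of the 10 genes in all but the library with both additions. It stood at 647 and 613 CPM per kb in undepleted HEK293T, 578 in undepleted HEK293FT, and 642 and 652 in the undepleted K562 kit libraries. Against the mean of the 6 helicase subunits this was 2.69 and 2.65 times in undepleted HEK293T, 2.40 times in HEK293FT, and 3.37 and 3.42 times in K562. Over all libraries the ratio ran from 2.19 to 3.09 in HEK293T and from 3.05 to 3.99 in K562 without the shallow libraries, so that the lines overlapped narrowly. The density of PCNA itself overlapped widely between the lines, while the mean of the 6 subunits was 226 to 244 CPM per kb in HEK293T and 182 to 191 in those K562 libraries, without overlap.

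The subunits of ribonucleotide reductase are needed together, yet RRM2 stood above RRM1 in every library. RRM2 had 399 and 295 CPM per kb in undepleted HEK293T, 337 in undepleted HEK293FT, and 270 and 260 in the undepleted K562 kit libraries. RRM1 had 144 and 153 CPM per kb in undepleted HEK293T, 127 in undepleted HEK293FT, and 89.6 and 87.6 in the undepleted K562 kit libraries. RRM1 thus lay lower in both K562 libraries than in either HEK line. The ratio of RRM1 to RRM2 was 0.360 to 0.565 in HEK293T (median 0.522), 0.378 and 0.415 in HEK293FT, and 0.231 to 0.358 in K562 without the shallow libraries (median 0.318), and the ranges of HEK293T and K562 came close without overlapping. Reads of loci that share sequence with RRM2 may be counted with it, and their part in this ratio was not tested.

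Against the helicase mean, RRM2 was above it and RRM1 below it in both lines. RRM2 ran from 1.20 to 1.88 times the mean in HEK293T and from 1.25 to 1.77 times in K562 without the shallow libraries, which lies within the HEK293T range, while the shallow libraries reached 2.57 times with oligos. RRM1 ran from 0.597 to 0.839 times the mean in HEK293T, stood at 0.528 and 0.611 in HEK293FT, and ran from 0.394 to 0.510 in K562 without the shallow libraries. MCM10, which acts at the fork and is not part of the ring, was the lowest of the 10 except for RRM1 in 2 shallow libraries, at 57.1 and 47.1 CPM per kb in undepleted HEK293T, 52.0 in HEK293FT, and 30.5 and 29.1 in the undepleted K562 kit libraries. That is 0.162 to 0.266 times the helicase mean in HEK293T and 0.109 to 0.356 times in K562, shallow libraries included.

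**Figure D3:**
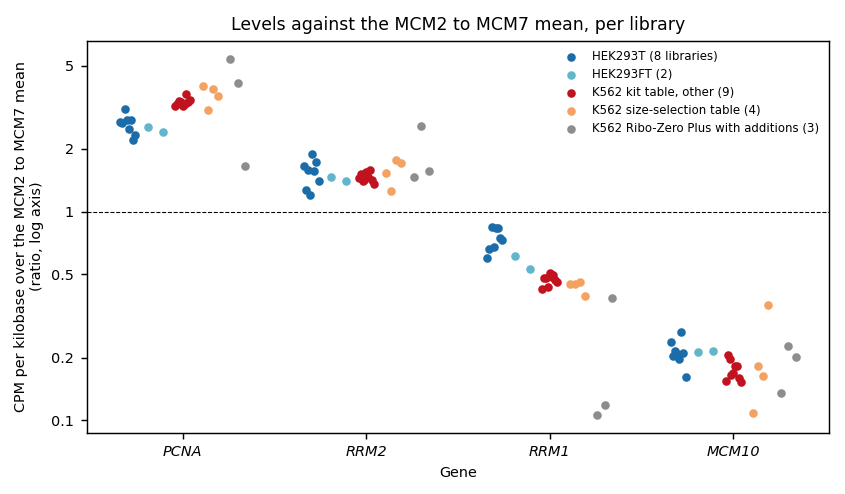
Density of PCNA, RRM2, RRM1 and MCM10 divided by the mean density of MCM2 to MCM7 (ratio, log axis), 1 point per library, with a dashed line at equality. PCNA and RRM2 lie above the line and RRM1 and MCM10 below it in all libraries, RRM1 lies lower in K562 (0.394 to 0.510, shallow libraries apart) than in HEK293T (0.597 to 0.839), and in 2 shallow libraries it is near 0.11.

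Levels in K562 were then compared with HEK293T over the 7 undepleted libraries in 1 fit. Cell line, experiment and size selection cannot be told apart in it, so each rise or fall is a difference between these sets of libraries. In the K562 libraries 3 members were lower: the helicase subunits MCM2 and MCM4 and the reductase subunit RRM1. The other 7, MCM7 and PCNA among them, did not pass the test. Over all 5551 genes tested, 44.2% were called, so 3 of 10 is a smaller share than the background. The median log2 fold change was -0.26 over the members and -0.01 over all genes.

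MCM2 had 193 ± 8.68 CPM per kb in HEK293T (SD, n = 2) and 110 ± 3.09 in K562 (n = 4), with no overlap between the lines, and fell by 0.71 ± 0.15 on the log2 scale (SE; edgeR quasi-likelihood test, Benjamini-Hochberg adjusted p 2.16e-05). MCM4 had 301 ± 2.12 and 187 ± 8.45 CPM per kb, again without overlap, and fell by 0.53 ± 0.12 on the log2 scale (edgeR adjusted p 0.000118). RRM1 had 148 ± 6.93 and 83.2 ± 7.99 CPM per kb and fell by 0.65 ± 0.18 on the log2 scale (edgeR adjusted p 0.00124). MCM2 was lower in K562 in 4 of 4 libraries, as were MCM4 and RRM1. The share of all genes that separate the lines in this way was not counted. With 44.2% of all genes called, the separation does not mark these members out.

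MCM10, at -0.64 ± 0.28 in log2 (edgeR adjusted p 0.0527), was not called, and its K562 libraries ran from 29.1 to 65.0 CPM per kb around HEK293T values of 47.1 and 57.1. PCNA had the highest log2 fold change, 0.17 ± 0.14 (edgeR adjusted p 0.330), and MCM7 had 0.14 ± 0.11 (edgeR adjusted p 0.319). The remaining helicase subunits had -0.29 ± 0.16 (MCM5), -0.10 ± 0.15 (MCM3) and -0.08 ± 0.15 (MCM6), and RRM2 had -0.22 ± 0.16. With totals in place of TMM scaling the median of all genes moved to -0.16 and MCM7 to -0.01, so the sign of MCM7 depends on the scaling, while PCNA stayed at 0.02. With totals, MCM5 and MCM10 were called as lower too, and with DESeq2 size factors MCM10 was.

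The calls of MCM4 and RRM1 rested on both HEK293T libraries. Without the first, MCM4 had an edgeR adjusted p of 0.0587 and RRM1 of 0.0524, and without the second 0.103 and 0.211, leaving MCM2 as the only call. All 3 were called without the K562 size-selection libraries, whose labels conflict, and MCM7 was then called as higher.

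Between the single undepleted HEK293FT library and HEK293T, 1 member passed the test, and that call did not hold under any alternative run. MCM7, at 457 against 388 ± 19.2 CPM per kb, was higher by 0.37 ± 0.12 on the log2 scale (SE; edgeR adjusted p 0.0458), and 6.7% of all 5551 genes were called. The call was lost in 6 of 6 alternatives, with adjusted p from 0.0519 to 0.439, among them leaving out either HEK293T library (0.192 and 0.439). The lowest log2 fold change was that of MCM6, -0.11 ± 0.17. The single HEK293FT library was assumed to vary like the other lines.

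**Figure D4:**
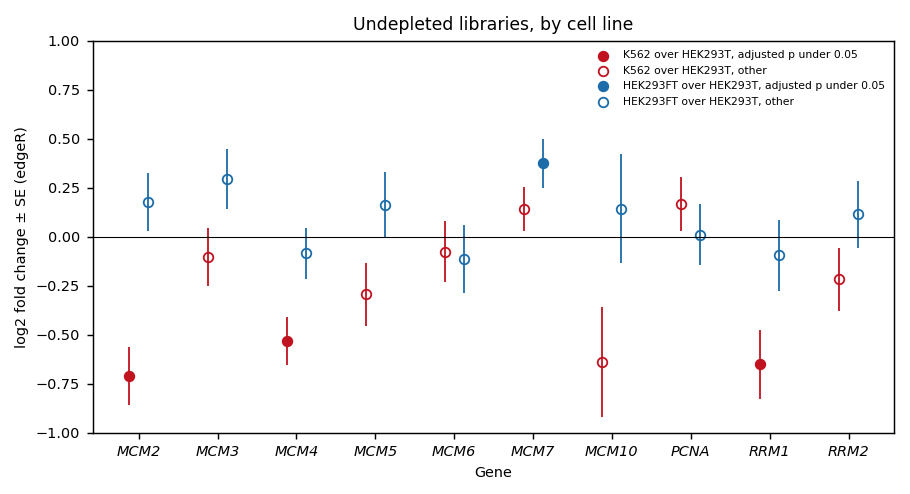
Log2 fold change (± SE, edgeR) of each gene in undepleted libraries, K562 over HEK293T in red and HEK293FT over HEK293T in blue, filled where the adjusted p is under 0.05. MCM2, MCM4 and RRM1 are filled in red at -0.71, -0.53 and -0.65, and MCM7 is the 1 filled point in blue at 0.37.

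Other genes of the replication machinery differed in both directions between the K562 and HEK293T libraries, where cell line and experiment again cannot be told apart. Of a list of 60, 55 were tested, 9 rose and 10 fell, and the median log2 fold change was -0.07. That is a smaller share than the 44.2% called over all genes. CDC45, which joins the ring to form the active helicase, rose by 1.56 ± 0.20 on the log2 scale (edgeR adjusted p 2.27e-11), and was the 1 call among 4 partners tested, the others being GINS1, GINS2 and GINS4. In origin licensing ORC1, a subunit of the origin recognition complex, rose by 1.55 ± 0.33 (edgeR adjusted p 3.18e-05), and MCMBP, which binds MCM subunits, fell by 1.09 ± 0.24 (edgeR adjusted p 4.66e-05). CDC7, the kinase that phosphorylates the ring to start firing, fell by 1.75 ± 0.31 on the log2 scale (edgeR adjusted p 8.8e-07).

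At the fork, members of the single-strand binding complex RPA went opposite ways: RPA2 rose by 1.34 ± 0.25 on the log2 scale and RPA1 fell by 1.05 ± 0.21 (edgeR adjusted p 1.77e-06 and 6.39e-06). TIMELESS, a fork protection factor, fell by 1.17 ± 0.26 (edgeR adjusted p 9.73e-05), and POLA2, a subunit of polymerase alpha, fell by 1.09 ± 0.28 (edgeR adjusted p 0.000714). PCLAF, a PCNA-binding protein, rose by 1.35 ± 0.31 (edgeR adjusted p 0.000119), and the primase subunit PRIM2 rose by 0.84 ± 0.35 (edgeR adjusted p 0.0414).

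In nucleotide supply, where RRM1 fell, thymidine kinase TK1 rose by 0.82 ± 0.22 on the log2 scale (edgeR adjusted p 0.00148) and SAMHD1, which degrades deoxyribonucleotides, fell by 1.87 ± 0.38 (edgeR adjusted p 1.14e-05). Of the 5 clamp loader subunits, 0 were higher and 1 lower. Between HEK293FT and HEK293T, 1 of 55 listed genes was called, DONSON, at a log2 value of -1.34 ± 0.44 (edgeR adjusted p 0.0432).

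Depletion kits left the 10 genes without a call in HEK293T. Between NEBNext and undepleted libraries edgeR called 0 members, 0 at an unadjusted p under 0.05, against 3.24% of 4410 genes. RRM1 had the highest log2 fold change, 0.26 ± 0.20, and MCM10 the lowest, -0.23 ± 0.34. With Ribo-Zero Gold edgeR called 0 members (0 unadjusted) against 0.068% of genes, and members lay between -0.05 (MCM2) and 0.28 ± 0.18 (RRM1). With RiboCop edgeR called 0 members (0 unadjusted) against 0% of genes, where 195 genes had an unadjusted p under 0.05, and members lay between -0.09 (MCM6) and 0.36 ± 0.19 (RRM1). DESeq2 called 0 members in each of the 3.

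RRM1 thus had the highest value with each of the 3 kits, which share their undepleted libraries. Its density was 144 and 153 CPM per kb undepleted, 203 and 163 with Ribo-Zero Gold, 196 and 190 with RiboCop, and 183 and 171 with NEBNext. All 6 depleted libraries lay above both undepleted ones, from 41 and 56 undepleted counts, and no test passed. The share of all genes that separate in this way was not counted, so the pattern does not mark RRM1 out. The standard errors of the members were 0.12 to 0.34, and changes of that size, and larger ones too, can go undetected at this depth. RRM1 with RiboCop, at 0.36 ± 0.19, had an edgeR adjusted p of 0.998.

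In K562, NEBNext gave the widest spread of the members. Over both sizes edgeR called 0 members (1 at an unadjusted p under 0.05, and 0 by DESeq2) against 2.72% of 3715 genes. MCM6 had the highest log2 fold change, 0.60 ± 0.23 (edgeR adjusted p 0.148), at 182 against 134 CPM per kb at 20 to 34 nt and 152 against 77.9 at 20 to 60 nt, the last from 9 counts. MCM10 had the lowest, -0.67 ± 0.45. In HEK293T the NEBNext value of MCM6 was -0.09 ± 0.19. The difference between the tables, K562 minus HEK293T, was 0.71 ± 0.30 (edgeR interaction term, unadjusted p 0.022, adjusted p 0.537), and edgeR called 0 of the 10 members in that test (1 unadjusted) and 14 of 4736 genes. DUT, which removes dUTP from the nucleotide pool, was the only listed replication gene called, at -1.01 ± 0.23 in log2 (edgeR adjusted p 0.00158).

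The K562 kit table gave the tightest values. With FastSelect edgeR called 0 members (0 unadjusted) against 0.0205% of 9761 genes, with riboPools 0 (1 unadjusted) against 0.082%, and with cold elution 0 (2 unadjusted) against 0.225%, and DESeq2 called 0 in each. The members lay between -0.09 (MCM3) and 0.22 ± 0.13 (MCM10) with FastSelect, between -0.14 (MCM6) and 0.17 (MCM10) with riboPools, and between -0.14 (MCM6) and 0.11 (MCM10) with cold elution. For MCM7, the best counted, the log2 fold change was 0.04 ± 0.04, 0.04 ± 0.04 and -0.01 ± 0.04. MCM6 had 149 and 167 CPM per kb undepleted, 142 and 144 with riboPools, and 143 and 144 with cold elution, so that both undepleted libraries lay above all 4 others by a margin that failed the correction (edgeR adjusted p 0.778 and 0.665). PCNA had 596 and 604 CPM per kb with cold elution, below both undepleted libraries, and its log2 value, -0.11 ± 0.05, was not called (edgeR adjusted p 0.684). How many of all genes separate as MCM6 and PCNA do here was not counted.

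With Ribo-Zero Plus without additions many genes passed the edgeR test and fewer passed with DESeq2. None of the 10 passed with either, and so few genes cannot show that they were spared. The edgeR test called 0 members (1 unadjusted, RRM2; 0 by DESeq2) against 20.6% of 10078 genes. MCM10 had the highest log2 fold change, 0.24 ± 0.16, and MCM6 the lowest, -0.05 ± 0.08, with RRM2 at 0.20 ± 0.08 (edgeR adjusted p 0.0706). Of the 60 listed replication genes 6 rose and 7 fell, a share near that over all genes. ORC4 rose by 0.62 ± 0.17 and POLE3, a polymerase epsilon subunit, by 0.53 ± 0.17 on the log2 scale, while MCM9, a relative of the helicase subunits, fell by 1.33 ± 0.42, and RRM2B, the other small reductase subunit, fell by 0.93 ± 0.33 (edgeR adjusted p 0.00535, 0.0153, 0.0137 and 0.0332). This rests on 1 library, assumed to vary like the other groups.

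As the mean of its 4 libraries, Ribo-Zero Plus was lower at 2 members, MCM3 and MCM6, against 14.9% of 9628 genes called. For so few members that is near the share over all genes. This mean was fitted with oligos and formaldehyde as additive terms, so it is not the plain average of the 4 levels, and with a library left out the level of that library is extrapolated from the other 3. MCM3 had 155 CPM per kb without additions, 46.8 with formaldehyde, 142 with oligos and 96.9 with both, against 158 and 153 undepleted, and fell by 0.62 ± 0.14 on the log2 scale (edgeR adjusted p 0.0166). MCM6 had 151, 90.3, 127 and 101 CPM per kb in the same order, against 149 and 167 undepleted, and fell by 0.53 ± 0.13 (edgeR adjusted p 0.0188). Both falls stand against a median of -0.43 over all genes, so they lay not far below the typical gene. The median over the members was -0.17, and under DESeq2 size factors the median of all genes moved to -0.30. Without the second undepleted library edgeR called 0 members, without the first 1 (MCM6), and 0 when no other kit was in the fit. Leaving out the library without additions, or the one with both, gave 5 members, all lower: MCM3, MCM4, MCM6, MCM7 and RRM1. Leaving out the library with formaldehyde alone, or the one with oligos alone, gave 3 members, all lower: MCM3, MCM6 and PCNA. Without the filter on low counts RRM1 was called as lower beside MCM3 and MCM6.

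RRM1 differed most among these 4 libraries. It had 94.3 CPM per kb without additions, 18.0 with formaldehyde (5 counts), 20.5 with oligos (9 counts) and 66.2 with both, against 89.6 and 87.6 undepleted, while RRM2 had 300, 249, 444 and 269 CPM per kb. RRM1 over RRM2 was therefore 0.314 without additions and 0.0723, 0.0461 and 0.246 with them. The fitted mean of RRM1 was -0.78 ± 0.30 in log2 (edgeR adjusted p 0.0821). It moved to -2.40 without the library that had no additions and -2.39 without the one with both (edgeR adjusted p 1.64e-10 and 1.57e-10), and to -0.23 without either the formaldehyde or the oligos library (edgeR adjusted p 0.257 and 0.255). The value thus rests on which 3 libraries are fitted. PCNA was lowest with both additions, at 285 CPM per kb against 709 to 915 with either alone. Of the 60 listed replication genes, all tested, 0 rose and 8 fell, a share near the 14.9% of all genes called. The largest fitted falls were of RRM2B and MCM9, for which no fold is given: RRM2B had 0, 1 and 0 counts with formaldehyde, oligos and both, and MCM9 had 5, 0 and 0, where 3 counts are 25.7, 16.2 and 18.2 CPM and the undepleted levels were 17.4 to 29.1 CPM.

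**Figure D5:**
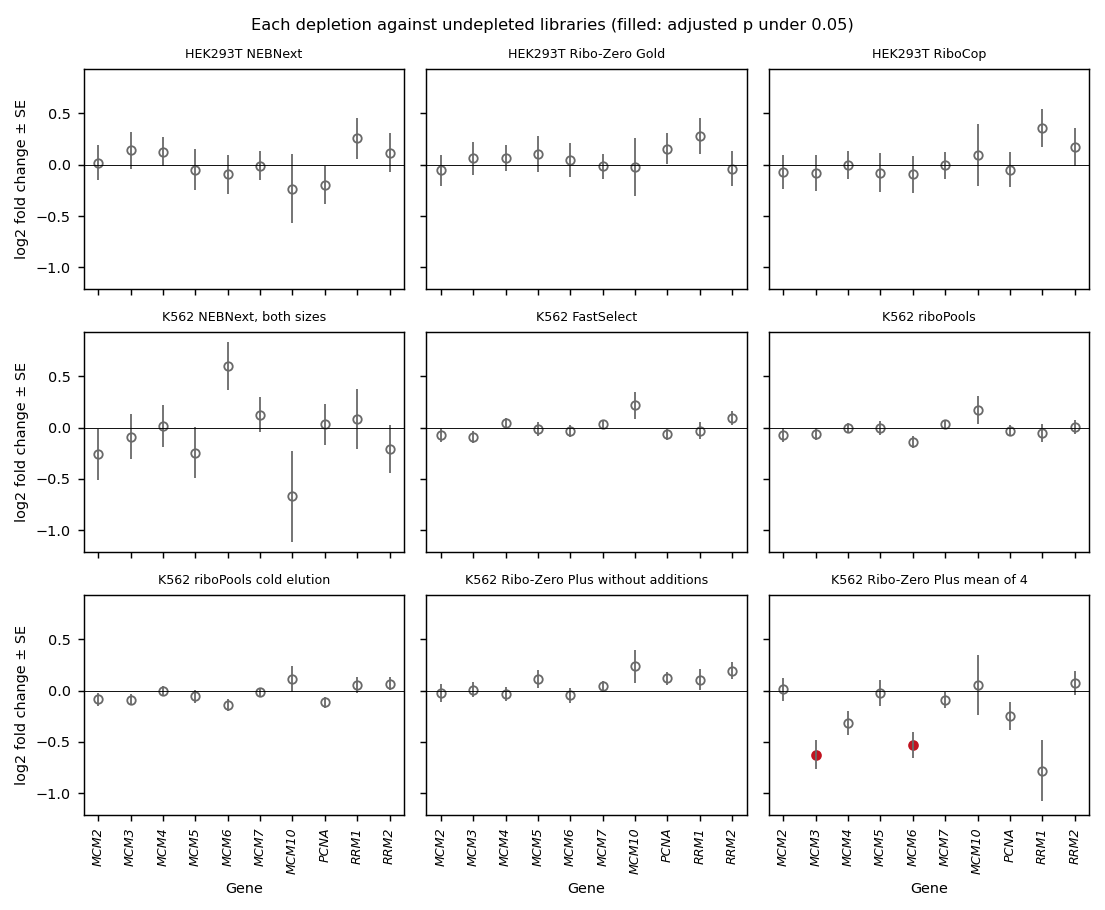
Log2 fold change (± SE, edgeR) of each gene for each depletion against undepleted libraries of the same table, filled where the adjusted p is under 0.05. Only MCM3 (-0.62) and MCM6 (-0.53) under the mean of 4 Ribo-Zero Plus libraries are filled, and points of FastSelect, riboPools and cold elution lie within -0.14 and 0.22.

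In HEK293FT, custom oligos moved 0 of 10 members past 1.5-fold, against 1.22% of 5225 genes whose mean was 100 counts or more. The log2 ratio of oligos to undepleted ran from -0.13 for MCM5 (interval -0.29 to 0.04, exact binomial, counting error only) to 0.15 for RRM1 (-0.03 to 0.34). MCM7 had a ratio of -0.06 (-0.17 to 0.04), from 5423 and 889 counts. All 10 intervals included 0, and with 1 library a side no test was made.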

How the data were processed

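The authors deposited whole-number counts of footprints in coding sequences per transcript, 19478 in each of 4 tables with 26 libraries. CASAVA 1.8, STAR and the GRCh38 (hg38) build are named per the submitters' processing notes, and the treatment of multi-mapping or duplicate reads is not given in the sources used here. The depth-scaled tables also deposited equal count over total and were not used. All count columns were mapped by their titles.

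CPM and CPM per kb of coding sequence (GENCODE 29, with a length for 97.28% of the transcripts) were computed from the deposited counts over each library's total (46858 to 5795774). Comparisons used the quasi-likelihood test of edgeR 4.0.16 (R 4.3.3, limma 3.58.1) on all genes, with TMM scaling, its expression filter at 10 counts, Benjamini-Hochberg adjustment and a threshold of 0.05; DESeq2 1.42.0 was an alternative. HEK293T kits were fitted over all 8 HEK293T libraries and cell lines over the undepleted libraries of the 4 tables. FastSelect, riboPools and cold elution were fitted with the undepleted libraries of the K562 kit table, without any Ribo-Zero Plus library. For Ribo-Zero Plus without additions, its 1 library was added to that fit. The mean of 4 was fitted over the whole K562 kit table, with oligos and formaldehyde as additive terms. Shares carry exact Clopper-Pearson 95% intervals of raw counts, rescaled to density, which cover counting error only, since no molecular identifiers are used here. The edgeR step was tested on simulated data. Alternatives were DESeq2 size factors, library totals, no filter, DESeq2, each library left out, the replicate number as a block, other sets of libraries, coding length trimmed by 15 and 5 codons, raw counts and a geometric mean.

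The members and lists were chosen with earlier results of these data known. Values are given for members that passed the test and for those with the highest and lowest fold change. Of the 60 listed replication genes, the 6 largest rises and 6 largest falls between K562 and HEK293T, and up to 2 each way elsewhere, were named among calls with a mean of at least 20 counts. Members named beyond that rule were chosen after their values were seen. Some of the cell line markers examined are not reported here.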

Additional observations from a re-analysis of the deposited data

How the results depend on the processing

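Depth limits the HEK293T and K562 size-selection tables and the 3 shallow Ribo-Zero Plus libraries most. In the K562 library titled undepleted at 20 to 60 nt, MCM10 and RRM1 rest on 8 counts and MCM6 on 9. With formaldehyde RRM1 rests on fewer. Of the log2 fold changes of members that were called or were highest or lowest in a comparison, 225 kept direction and side of the threshold under an alternative, 15 lost a call, 3 gained one and 5 reversed. MCM10 with HEK293T NEBNext ran from -0.42 to 0.000648 with a library left out, MCM2 with Ribo-Zero Gold from -0.15 to 0.037 (0.014 without a filter), MCM10 with FastSelect from -0.020 to 0.40, and MCM6 with Ribo-Zero Plus without additions from -0.13 to 0.032. Outside that set, MCM7 between K562 and HEK293T turned to -0.01 with library totals. The cause was not tested.

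The number of members called between K562 and HEK293T was 5 with library totals and ran from 1 to 4 with a library left out. Between HEK293FT and HEK293T it was 0 with DESeq2 size factors, library totals, no filter and DESeq2, and 0 with either HEK293T library left out. For the mean of 4 Ribo-Zero Plus libraries it ran from 0 to 5 with a library left out and was 0 with those and the undepleted libraries alone. In the other 8 fits it was 0 under every alternative run.

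On raw counts the CV of the 6 subunits was 33.3% in undepleted HEK293T and 45.9% in the undepleted K562 kit libraries, and the MCM7 share 24.4% and 31.1%. The log2 ratio of PCNA to the helicase mean was 1.49 and 1.84 with trimmed coding length, and 1.49 and 1.90 with a geometric mean, in the same order. In those K562 libraries the geometric mean gave -0.97 for RRM1, 0.61 for RRM2 and -2.54 for MCM10, and trimming gave 0.51 for RRM2.

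Over all genes the number called ran from 56 to 153 for HEK293T NEBNext (143), 1 to 5 for Ribo-Zero Gold (3), 0 to 1 for RiboCop (0), 17 to 101 for K562 NEBNext (101), 0 to 3 for FastSelect (2), 0 to 9 for riboPools (8), 0 to 27 for cold elution (22), 447 to 2104 for Ribo-Zero Plus without additions (2080), 0 to 3575 for its mean of 4 (1431), 1523 to 3599 for K562 against HEK293T (2453) and 99 to 406 for HEK293FT (372). With totals the split between HEK293FT and HEK293T was 168 higher and 238 lower, against 239 and 133.

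The replicate numbers were not taken to pair the libraries, since deviations of same-numbered libraries correlated by 0.06 to 0.14 in HEK293T and by -0.05 to 0.02 in the K562 kit table. With the replicate block 0 members were called in each kit comparison that has replicate numbers, and 153 genes for HEK293T NEBNext. Leave-one-out fits of K562 NEBNext, of Ribo-Zero Plus without its only library and of HEK293FT without its only library were not run, since no residual degrees of freedom or no group was left.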

Other observations

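Genes whose footprint level followed the summed level of the 6 helicase subunits most closely over the 26 libraries were CKB (creatine kinase B, Pearson r 0.976), RPS4X (a ribosomal protein, 0.973), CCT3 (a chaperonin subunit, 0.973), and the histone H4 genes HIST2H4A (0.972) and HIST2H4B (0.969). Each of these genes had a higher mean in HEK than in K562 libraries, from CKB (2082 against 668.5 CPM) to CCT3 (1543 against 947.6 CPM). The helicase sum differed the same way, and the part of this difference in the coefficients was not tested. The coefficients are over libraries that share a cell line and a table, among 2373 genes with a median r of -0.04, and stand as a description. Both histone genes have near-identical copies, so their counts are uncertain.

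RRM2 was higher in the library titled 1 than in that titled 2 for each of the 4 kits of HEK293T: 399 against 295 CPM per kb undepleted, 384 against 288 with Ribo-Zero Gold, 443 against 353 with RiboCop and 423 against 327 with NEBNext. In a fit of the 8 libraries with kit as the other term, chosen after seeing the data, the log2 difference was 0.37 ± 0.11 (SE; edgeR adjusted p 0.393), and 3 of 4410 genes were called. The share of all genes with 1 direction in all 4 kits was not counted, so the pattern does not mark RRM2 out. The labels do not say what the number stands for.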
